A study of Mus musculus with 4 samples.

Results

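Peroxisomes are small organelles that shorten very long-chain and branched fatty acids, and catalase inside them breaks down the hydrogen peroxide this makes. They hold no DNA, so every enzyme is made in the cytosol and brought in by peroxins, the proteins encoded by Pex genes. In skeletal muscle most fatty acid is burned in mitochondria, and several enzymes of the set, such as Ech1 and Eci2, are known in both organelles. The results below concern 27 genes named from a list: 13 peroxins, 4 genes of the peroxisomal membrane and 10 enzymes of peroxisomal oxidation and peroxide removal. All 27 were found among 22180 genes with a single gene symbol on the array, and each was read from its brightest transcript cluster, the array's unit of probes for a transcript. Pxmp2 was put on the list with its low value on the vehicle-treated knockout array already known.

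Gastrocnemius, a calf muscle of mostly fast fibres, was taken from mice for 4 Affymetrix arrays, 1 for each of 4 groups. Wild-type (WT) animals had received either the sodium citrate vehicle or streptozotocin (STZ), a toxin of the insulin-producing beta cells that makes mice diabetic. The other groups were animals whose skeletal muscle lacked KLF15, a transcription factor (KO), again with vehicle or STZ. Per the labels, each STZ dose was 50 mg/kg into the peritoneum, in 50 mM citrate at pH 4.5, repeated daily for 5 days, and tissue was taken at 3 weeks. The Cre driver, the strain, age and sex of the mice and the number of mice behind an array are not stated in the labels. Cells other than muscle fibres should still carry Klf15 in a muscle-specific knockout.

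With 1 array per group there is no replicate error, no test was run, and "higher" and "lower" describe single arrays. Differences are given as log2(intensity + 3.69), a scale on which the change of dim genes is understated. A difference counts as called at 1.5-fold or more, 0.58 on this scale. Median intensity lay between 5.73 and 5.96, while percentile 95 ran from 179.4 on the KO STZ array to 206.8 on the WT STZ array. Genes above level percentile 75, which include 24 of the 27, had a median difference of -0.11 for KO STZ minus WT STZ and of -0.014 for KO vehicle minus WT vehicle. Klf15 gave intensities of 50.5 and 72.1 on the WT vehicle and STZ arrays and of 19.8 and 16.04 on the matching KO arrays, low on both arrays labelled KO.

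The tissue label was checked against markers. The summed intensity of 12 skeletal muscle genes such as Acta1, Ckm and Myh4 lay between 59260 and 61508 on the 4 arrays. Alb, which marks hepatocytes, the cells richest in peroxisomal enzymes, read between 4.66 and 5.36, under the level filter at an intensity of 5.81. However, 3 of the 5 hepatocyte markers passed this filter by mean level. They were Apoa1 (6.31 to 10.1), Ttr (5.10 to 7.64) and Cyp2e1 (137.6 to 225.7). The 8 slow-fibre genes summed to 1610 (vehicle) and 1667 (STZ) in WT, and to 1318 and 1068 in KO. Sums of 9 adipocyte markers were 1699, 2238, 1873 and 1486 in the same order, with Adipoq between 12.1 and 18.9 and none of the 9 at 0. For 6 endothelial markers the sums were 614 (vehicle) and 611 (STZ) in WT, and 726 and 682 in KO. For 6 macrophage markers they were 246 and 297 in WT, and 259 and 307 in KO. The endothelial sum was thus higher on both KO arrays, and the macrophage sum on both STZ arrays. Single markers were mixed, with 2 of 6 endothelial markers lower in KO under STZ. Of the macrophage markers 3 of 6 were lower with STZ in each genotype. For 7 fibroblast and tendon genes the sums were 1431 (vehicle) and 1468 (STZ) in WT, and 2186 and 2236 in KO. Both KO arrays were thus the higher ones. The collagens stood furthest above WT, Col1a1 at 0.76 (vehicle) and 0.92 (STZ), Col1a2 at 0.68 and 0.75, and Col3a1 at 0.64 and 0.76. Under STZ the other genes of the list were at 0.30 (Fmod), 0.054 (Thbs4), 0.015 (Tnmd) and -0.069 (Pdgfra). The part of these genes in the KO and WT differences below was not tested. Other sums ran from 47.3 to 55.1 for 4 satellite cell markers and from 159.8 to 249 for 5 hepatocyte markers, where Cyp2e1 made up 137.6 to 225.7. The markers of red blood cells were not analysed here. In whole muscle, fewer cells of a type and less RNA per cell cannot be told apart.

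All 27 peroxisomal genes passed the level filter, and 0 of them lay below it on any array. Their intensities ran from 13.03, for Pex11g in WT vehicle, to 1102, for Ech1 in WT STZ. The highest value of a gene fell on the WT STZ array for 13 genes, on WT vehicle for 8, on KO STZ for 4 and on KO vehicle for 2. WT STZ was also the array with the highest value for 32.2% of all genes kept and for 40.2% of those above level percentile 75, against 48.1% of the 27. The lowest fell on KO STZ for 12, on KO vehicle for 9, on WT vehicle for 5 and on WT STZ for 1. For KO STZ the shares were 33.5% of all genes kept, 41.3% of those above percentile 75 and 44.4% of the 27. For KO vehicle they were 21.7%, 21.4% and 33.3%, for WT vehicle 20.6%, 18.4% and 18.5%, and for WT STZ 24.1%, 18.8% and 3.7%. The set thus had smaller shares of highest values on KO vehicle and of lowest values on WT STZ than all genes. With 1 array per group these gaps were not tested, and no trait of the set is read from them. In the 4 pairwise comparisons, 23 of the 27 stayed within 1.5-fold throughout on the log2(intensity + 3.69) scale, or 85.2%, against 93.8% of all genes kept. Those that did not were Pxmp2, Cat, Ech1 and Acaa1a. Ehhadh, a dim gene, would join them with no offset, where it was at -0.64 between the STZ arrays.

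**Figure D1:**
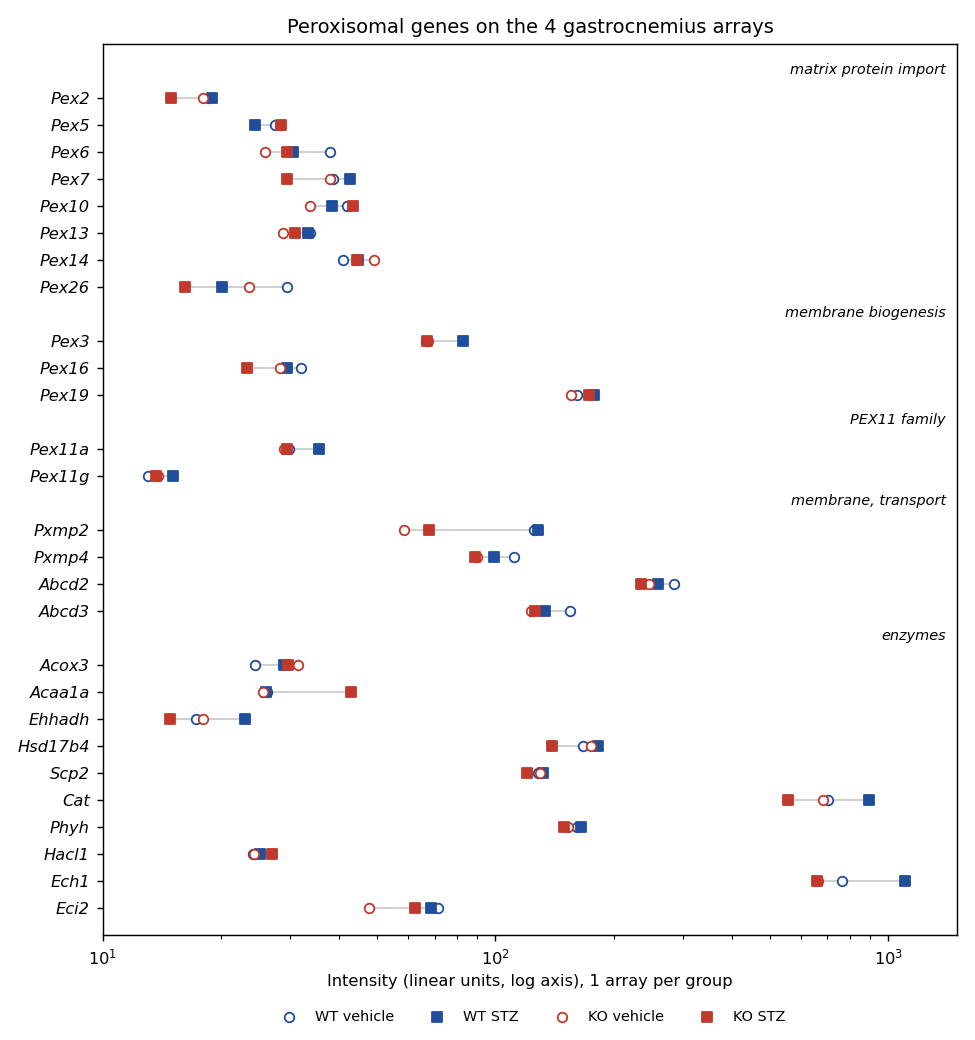
Intensity of the 27 peroxisomal genes (log axis, linear units), 1 point per array, with WT in blue and KO in red, vehicle open and STZ filled; the grey line joins the lowest and highest array of a gene. Both KO arrays lie far left of both WT arrays for Pxmp2 (58.4 and 67.6 against 125.1 and 128.6), while Cat and Ech1 spread between the STZ arrays and Acaa1a stands out on the KO STZ array.

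Pxmp2 had no window in the promoter sequences used and is not shown. Promoter sequence is shown for Cat, Ech1 and Acaa1a, the other genes of the set that differed by at least 1.5-fold between the STZ arrays. It is also shown for Gstk1, a glutathione transferase of peroxisomes and mitochondria that is not among the 27 but was furthest below WT in the wider peroxisomal list. The windows are the 250 bases before the annotated start in RefSeq (GRCm38.p6), at chr2:103485154-103485403 on the minus strand, chr7:28825088-28825337 on the plus strand, chr9:119341044-119341293 on the plus strand and chr6:42245685-42245934 on the plus strand. Capitals mark, on either strand, the letters CCACCC, here called the C-rich box. They also mark the GC box, whose letters are GGGCGG. Both are kinds of sequence that Kruppel-like factors are known to bind.
Cat: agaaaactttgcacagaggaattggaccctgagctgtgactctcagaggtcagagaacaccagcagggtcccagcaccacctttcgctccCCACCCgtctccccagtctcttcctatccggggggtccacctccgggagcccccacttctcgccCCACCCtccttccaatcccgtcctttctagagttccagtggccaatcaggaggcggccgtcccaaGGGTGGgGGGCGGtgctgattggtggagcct
Ech1: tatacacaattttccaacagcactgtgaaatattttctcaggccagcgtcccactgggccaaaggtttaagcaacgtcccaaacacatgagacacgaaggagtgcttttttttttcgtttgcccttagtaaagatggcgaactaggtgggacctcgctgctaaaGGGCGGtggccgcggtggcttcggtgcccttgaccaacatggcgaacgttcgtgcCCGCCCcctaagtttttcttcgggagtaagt
Acaa1a: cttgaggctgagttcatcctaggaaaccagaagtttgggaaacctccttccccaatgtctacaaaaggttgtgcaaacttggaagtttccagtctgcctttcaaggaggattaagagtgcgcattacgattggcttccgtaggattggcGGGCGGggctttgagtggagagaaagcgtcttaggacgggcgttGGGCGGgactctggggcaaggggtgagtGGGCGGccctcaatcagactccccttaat
Gstk1: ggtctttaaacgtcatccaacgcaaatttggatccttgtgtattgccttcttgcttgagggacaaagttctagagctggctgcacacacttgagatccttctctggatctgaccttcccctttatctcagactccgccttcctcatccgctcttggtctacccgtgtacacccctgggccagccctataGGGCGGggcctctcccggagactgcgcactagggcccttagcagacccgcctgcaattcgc
The Cat window held 3 C-rich boxes and 1 GC box, the Ech1 window 2 GC boxes, the Acaa1a window 3 GC boxes and the Gstk1 window 1 GC box, and no box of either kind overlapped one of the other. Of the 22 peroxisomal genes with a window, 15 held a GC box, against 32.9% of 27025 promoters of the same length, and 7 held a C-rich box, against 27.7%. Median GC content was 56% for these genes and 52% for all promoters. AGGTCA, the half-site of nuclear receptors such as PPAR-alpha, was in 3 of the 22 windows and in 13.8% of all. A match is only a run of letters, and the windows were not read against any binding data.

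The first comparison asked how KO and WT muscle differed without diabetes. The gene of the set that stood out was Pxmp2, a channel-forming protein of the peroxisomal membrane, with the KO array at 46.7% of WT. It was 1 of 27 genes at least 1.5-fold lower in KO vehicle, where 0.777% of all 13258 genes kept were so, and 0 were at least 1.5-fold higher, against 0.581% of all genes. Since Pxmp2 was listed with this value known, nothing is read from the count. The remaining 26 genes stayed within 1.5-fold, and the median of the 27 was -0.047, against -0.0039 over all genes kept. Below 0 lay 18 of the 27, against 50.8% of all genes.

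Pxmp2 read 125.1 in WT vehicle and 58.4 in KO vehicle, a difference of -1.05. On the STZ arrays it read 128.6 in WT and 67.6 in KO, or 52.6% of WT and a difference of -0.89. These are other arrays, but the members were chosen with earlier results of these data known. Both KO values lie well below both WT values, and the difference stayed past 1.5-fold in 7 of 7 processing alternatives under each treatment. Of these, the level filters and the cluster mean cannot change the value of a gene with a single cluster, such as Pxmp2. STZ itself went with little change in Pxmp2, at 0.039 in WT and 0.20 in KO. The other membrane genes were lower in KO by less. Abcd3, also called PMP70, which carries branched-chain and dicarboxylic acyl-CoAs inward, was at 154.7 with vehicle and 133.9 with STZ in WT muscle, and at 123.4 and 126.4 in KO muscle. For Pxmp4, an integral membrane protein, the readings in that order were 111.7, 99.4, 89.9 and 88.6. Abcd2, a carrier of very long-chain acyl-CoAs, read 285, 259, 245 and 235. These 3 genes were below 0 under both treatments but within 1.5-fold, as Pxmp2 alone of the 4 was past it. In the whole set, 16 of the 27 genes were below 0 under both treatments, or 59.3%. The share was 32.7% of all genes kept and 40.8% of those above level percentile 75. The higher share of the set was not tested, and little is read from 3 genes.

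Peroxins of matrix protein import showed no called difference under vehicle. Pex6, an ATPase that pulls the import receptor back out of the membrane, was the nearest at -0.50, with 38.02 in WT vehicle and 25.9 in KO vehicle. With STZ it read 30.5 in WT against 29.4 in KO, a gap between genotypes of -0.048. Pex26, which anchors Pex6 to the membrane, was at -0.28 under vehicle and -0.26 under STZ. The RING-type ubiquitin ligase Pex10 was at -0.28 under vehicle and 0.17 under STZ, whereas its partner Pex2 was at -0.047 and -0.28. Pex5, the receptor for the common C-terminal import signal, lay at 0.035 and 0.19. Docking proteins Pex13 (-0.20 and -0.10) and Pex14 (0.25 and -0.010) differed in sign under vehicle. Over the 4 arrays Pex5 ran from 24.4 to 28.4, Pex13 from 28.8 to 33.7, Pex14 from 40.9 to 49.2, Pex10 from 33.8 to 43.5 and Pex2 from 14.95 to 19.02. Import genes as a group had medians of -0.12 and -0.075 over 8 genes.

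Among the enzymes, Eci2, an enoyl-CoA isomerase for unsaturated fatty acids, came closest to the threshold under vehicle. Eci2 read 71.3 (vehicle) and 68.7 (STZ) in WT, and 47.6 and 62.3 in KO. The KO vehicle array was therefore the low one of the 4, at -0.55 from WT, and the difference under STZ was -0.13. Acox3, an oxidase for branched-chain acyl-CoAs, was the highest of the enzymes in KO vehicle at 0.32, with 24.5 in WT and 31.4 in KO. The 10 enzymes had a median of -0.0090, with 5 above and 5 below 0.

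**Figure D2:**
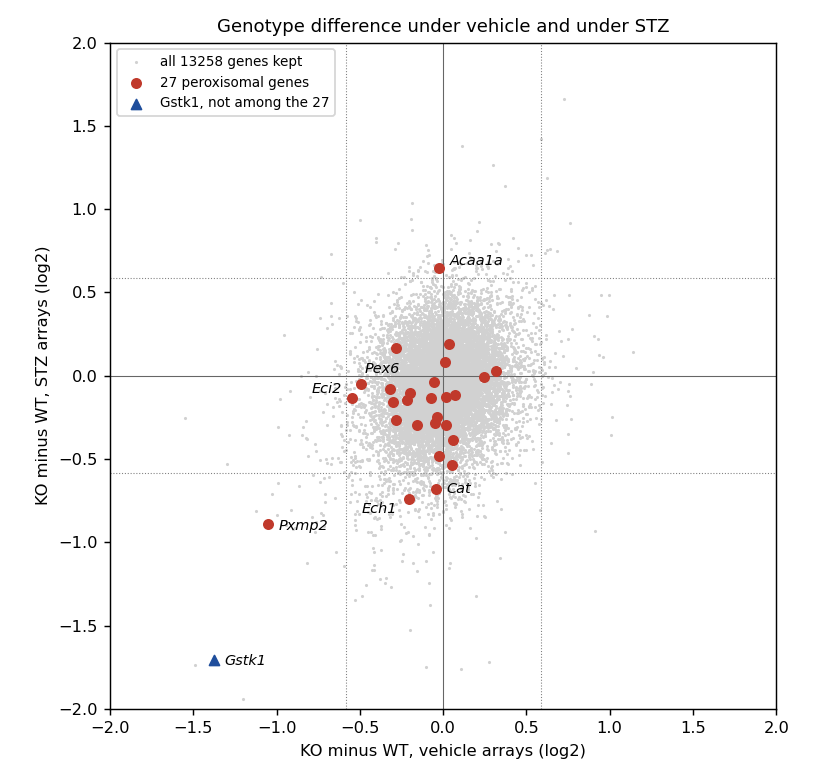
Log2 difference of KO minus WT on the vehicle arrays (x axis) and on the STZ arrays (y axis), which share no array, for 27 peroxisomal genes (red), Gstk1 (blue triangle) and all 13258 genes kept (grey); dotted lines mark 1.5-fold, and 2 genes lie outside the axes. Pxmp2 lies past 1.5-fold on both axes, while Cat, Ech1 and Acaa1a are past it on the STZ axis only.

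The second comparison asked how KO and WT differed in STZ-treated muscle. Catalase and Ech1, both bright on every array, and again Pxmp2, were lower on the KO array, and the thiolase Acaa1a was higher. In counts, 3 of 27 were at least 1.5-fold lower, against 2.81% of all genes, and 1 was at least 1.5-fold higher, against 0.845%. Below 0 lay 22 of the 27, and the median was -0.13. Of all genes 58.1% were below 0, and of genes above level percentile 75 the share was 68.6%. The members' median was 0 after quantile normalization and -0.034 after removal of a loess trend, so no shift of the set as a whole is read from it.

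Cat, the catalase that removes hydrogen peroxide, gave intensities of 701 and 893 on the WT vehicle and STZ arrays and of 681 and 556 on the matching KO arrays. The vehicle arrays were close, WT STZ was the highest and KO STZ the lowest. The genotype difference was -0.043 under vehicle and -0.68 under STZ. Ech1, a dienoyl-CoA isomerase of mitochondria and peroxisomes, was at 764 with vehicle and 1102 with STZ in WT muscle, and at 662 and 659.7 in KO muscle. Here WT STZ alone stood apart, and the genotype difference was -0.21 under vehicle and -0.74 under STZ. These calls ended under quantile normalization, where Cat stood at -0.45 and Ech1 at -0.53, and under loess, at -0.49 and -0.55. The sums of slow-fibre and adipocyte markers given above were also lowest on the KO STZ array and highest on the WT STZ array. Most of the adipocyte sum was Fabp4 and Cd36, at 1194 and 816 in WT STZ. Single markers were mixed. Fabp4, Cd36, Lipe, Lep, Tnni1, Tnnc1, Myl3 and Tpm3 were highest on WT STZ. Adipoq, Plin1, Cidec, Retn, Pck1 and Myl2 were highest on KO vehicle, and Myh7, Tnnt1 and Atp2a2 on WT vehicle. The part of these markers in the Cat and Ech1 differences was not tested.

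Acaa1a, the thiolase of the last step of peroxisomal beta-oxidation, read 26.2 (vehicle) and 26.1 (STZ) in WT, and 25.6 and 42.97 in KO. A single array was thus high, at 0.65 above WT STZ and 0.67 above KO vehicle. With an offset of 16 these differences were 0.49 and 0.50, no longer past 1.5-fold. Acaa1b is a close copy of this gene, and probes may not tell their transcripts apart. Its own cluster read 23.6, 22.9, 30.2 and 26.8 in the same order, without a high KO STZ value.

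Ehhadh, the bifunctional enzyme of the dicarboxylic acid branch and a known PPAR-alpha target in rodent liver, was a dim gene with the same highest and lowest array as Cat. It gave intensities of 17.3 and 23.1 on the WT vehicle and STZ arrays and of 18.1 and 14.8 on the matching KO arrays, and its genotype difference under STZ was -0.53. Hsd17b4, the second bifunctional enzyme, which serves branched and very long chains, stood at -0.38, with 183 in WT STZ and 139.2 in KO STZ. Scp2, a sterol carrier with a thiolase form, was at -0.13, and Phyh, which starts alpha-oxidation of phytanic acid, was also at -0.13. Both stayed in a narrow range over the arrays, from 120.5 to 132.2 for Scp2 and from 149.8 to 164.7 for Phyh. Hacl1, the lyase of the same alpha-oxidation route, was at 0.085 and Acox3 at 0.030. The median over the 10 enzymes was -0.13 in this comparison, with 7 below 0.

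Among the peroxins under STZ, Pex7, the receptor for the N-terminal import signal used by Phyh and thiolase, was the furthest from 0. It was at 38.7 with vehicle and 42.5 with STZ in WT muscle, and at 37.9 and 29.5 in KO muscle, a genotype difference of -0.48 under STZ. The early membrane-assembly genes were all below 0, with Pex16 at -0.30, Pex3 at -0.29 and Pex19, the chaperone of new membrane proteins, at -0.037. In the order WT vehicle, WT STZ, KO vehicle, KO STZ, Pex3 read 66.5, 82.8, 67.2 and 66.9, highest in WT STZ. Pex19 read 161.5, 178.2, 155.5 and 173.5, so it was higher with STZ in both genotypes (0.14 and 0.15), and Pex16 read 31.9, 29.4, 28.2 and 23.3, lowest in KO STZ. Pex11a and Pex11g, which shape and elongate the membrane before division, were at -0.25 and -0.12. None of the 13 peroxins was past 1.5-fold in any of the 4 pairwise comparisons.

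**Figure D3:**
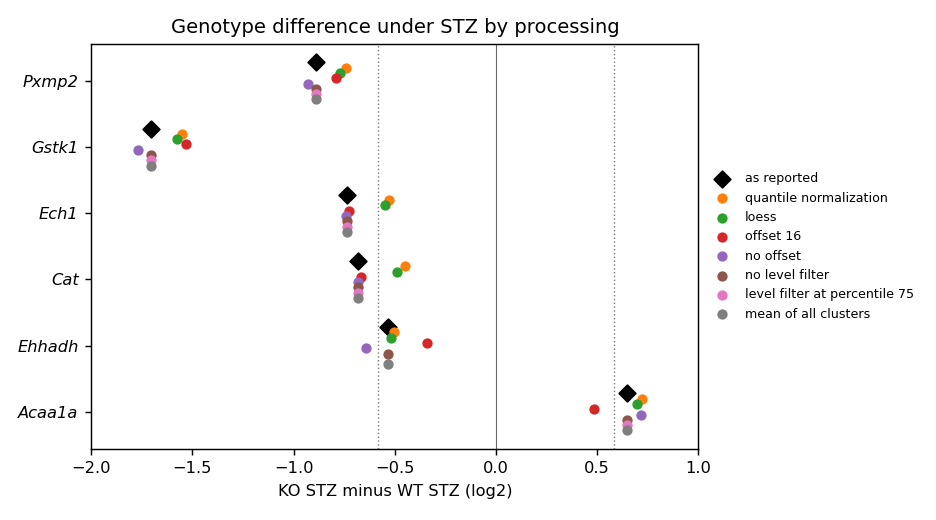
Log2 difference of KO STZ minus WT STZ (x axis) for 6 genes as reported (black diamond) and under 7 processing alternatives (coloured points); dotted lines mark 1.5-fold, and a setting whose level filter removes a gene has no point for it. Pxmp2 and Gstk1 stay past 1.5-fold throughout, while Cat and Ech1 move inside it under quantile normalization (-0.45 and -0.53) and loess (-0.49 and -0.55).

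The third comparison asked what STZ went with in WT muscle. No gene of the set passed 1.5-fold either way, where 1.27% of all genes were higher and 0.445% lower. The largest positive difference was that of Ech1 at 0.53, followed by Ehhadh and Cat at 0.35 each and Pex3, which starts membrane assembly, at 0.30. Of the 10 enzymes 8 were above 0, with a median of 0.088. Of all genes kept 51.5% were above 0, and 43.1% of those above level percentile 75 were below 0. The share of the enzymes was not tested, and nothing is read from 10 genes. The largest negative difference was Pex26 at -0.48, from 29.5 to 20.2. The median of the 27 was 0.039, against 0.0075 over all genes and 0.035 over genes above level percentile 75.

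In KO muscle, the fourth comparison, Acaa1a was the called gene, at 0.67. It was 1 of 27 at least 1.5-fold higher with STZ, against 0.445% of all genes, and 0 were at least 1.5-fold lower, against 0.656%. Ech1, at -0.0051, and Pex3, at -0.0060, were level between the KO arrays. Cat stood at -0.29 and Ehhadh at -0.23. Pex26 was at -0.46, from 23.6 to 16.2, close to its value in WT although these arrays are separate. Eci2 (0.36) and Pex10 (0.33) followed Acaa1a on the higher side. The median was -0.015, against -0.032 over all genes.

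**Figure D4:**
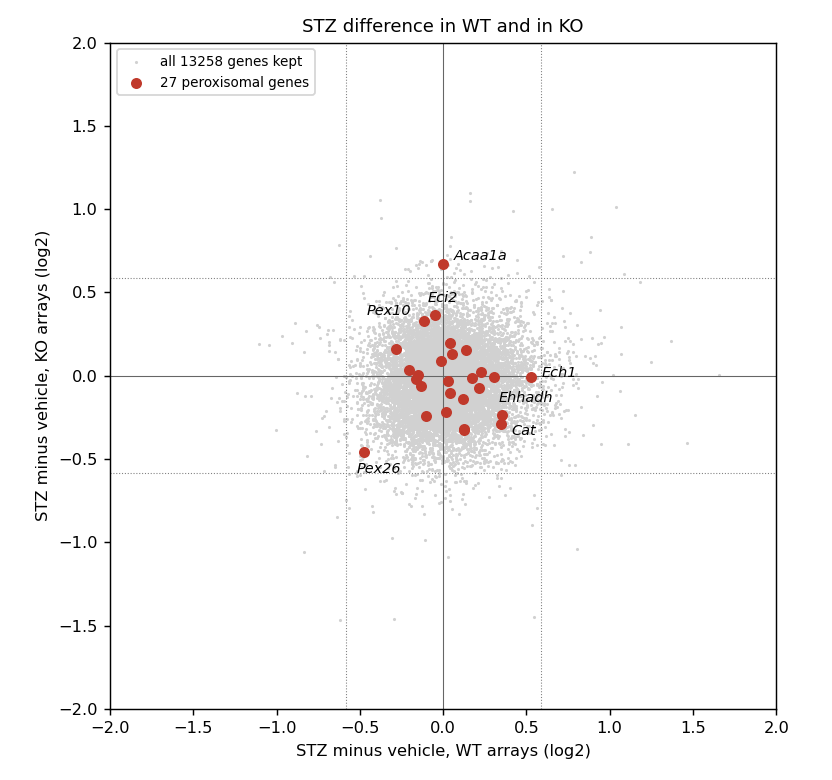
Log2 difference of STZ minus vehicle in WT (x axis) and in KO (y axis), which share no array, for the 27 peroxisomal genes (red) and all 13258 genes kept (grey); dotted lines mark 1.5-fold. Acaa1a is the red point above the line on the KO axis (0.67), Ech1 lies to the right at 0.53 in WT and near 0 in KO, and Pex26 is lower in both genotypes (-0.48 and -0.46).

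The last comparison set the STZ difference in KO against that in WT. By at least 1.5-fold, 2 of 27 lay on the lower side, Cat at -0.64 and Ehhadh at -0.59, against 3.91% of all genes. On the higher side was 1, Acaa1a at 0.67, against 1.76% of all genes. Positive in WT and negative in KO were 12 of the 27 genes, or 44.4%, against 28.6% of all genes kept and 33.6% of those above level percentile 75. Among the 12 were Pex7 at a difference of -0.45, Hsd17b4 at -0.45 and Pex3 at -0.31. Pex6 (0.45), Pex10 (0.45) and Eci2 (0.41) lay on the other side. The median of the set was -0.060, against -0.048 over all genes, and it turned positive with loess, with quantile normalization and with a level filter at percentile 75. Under quantile normalization and loess 0 of the 27 were past 1.5-fold on the lower side.

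Other peroxisomal genes were read from a list of 65 written with results of these data known, of which 52 were matched and 42 kept. Under vehicle 1 of the 42, Gstk1, was at least 1.5-fold lower in KO and 0 were higher, against 0.777% and 0.581% of all genes. Gstk1 read 181 (vehicle) and 198.7 (STZ) in WT, and 67.4 and 58.3 in KO, with differences of -1.38 and -1.71. Like Pxmp2, it was low on both KO arrays and past 1.5-fold in 7 of 7 alternatives. The level filters and the cluster mean could not change it, as Gstk1 has a single cluster. Under STZ 7 of the 42 were at least 1.5-fold lower in KO, against 2.81% of all genes, and 0 higher, against 0.845%. The list median was -0.12. The median over all genes was -0.048, and over those above level percentile 75, which include 34 of the 42, it was -0.11, close to that of the list. Besides Gstk1, the 7 genes lower in KO were Ephx2, a soluble epoxide hydrolase, at -0.82, and Trim37, a ubiquitin ligase, at -0.78. They also included Slc25a17, a cofactor carrier of the membrane, at -0.75, and Mlycd, the malonyl-CoA decarboxylase, at -0.75. The last were Dhrs4, a carbonyl reductase, at -0.62 and Nudt19, a coenzyme A hydrolase, at -0.60. Dhrs4 and Nudt19 were inside 1.5-fold under quantile normalization (-0.47 each), loess and an offset of 16, and Slc25a17 and Trim37 were inside it with an offset of 16 (-0.56 and -0.44).

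Several of these were, like Cat and Ech1, highest on the WT STZ array. Ephx2 gave intensities of 66.99 and 99.3 on the WT vehicle and STZ arrays and of 72.3 and 54.8 on the matching KO arrays. For Nudt19 the readings were 52.2, 82.5, 58.1 and 53.03. Its STZ difference in WT, 0.62, made it the 1 gene of the 42 past 1.5-fold there, where 1.27% of all genes were higher and 0.445% lower. Nudt19 was inside that limit after quantile normalization (0.55) and with an offset of 16 (0.53). In KO, 0 of the 42 were past 1.5-fold with STZ either way, where 0.445% of all genes were higher and 0.656% lower.

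The mitochondrial fatty acid oxidation genes, 16 matched of 17 listed, were the closest comparison set. Under vehicle 0 of 16 were past 1.5-fold between genotypes, where 0.581% of all genes were higher in KO and 0.777% lower. On the STZ arrays 4 of 16 were at least 1.5-fold lower in KO, against 2.81% of all genes. Their median was -0.38, where the peroxisomal set had -0.13 and genes above level percentile 75 had -0.11. These medians hold for the main processing only. Quantile normalization brought the peroxisomal median to 0, and removing a loess trend left it at -0.034. No mitochondrial median is given for either alternative. Percentile 95 of intensity was 179.4 on the KO STZ array and 206.8 on WT STZ. The part of this gap in the mitochondrial median was not tested. Slow-fibre genes were also lower on the KO STZ array, with 3 of 8 at least 1.5-fold lower and a median of -0.52. Their part in the mitochondrial differences was not tested. The 4 mitochondrial genes at least 1.5-fold lower were Acadl (-0.84), Slc25a20 (-0.68), Acaa2 (-0.68) and Etfa (-0.59). Of these, Acaa2, Slc25a20 and Etfa were inside 1.5-fold under quantile normalization (-0.49, -0.51 and -0.40) and loess, and Etfa also with an offset of 16 (-0.57). With STZ in KO, 0 of 16 were at least 1.5-fold higher, against 0.445% of all genes. In WT 2 of 16 were, Slc25a20 at 0.64 and Acadl at 0.61, against 1.27%. Quantile normalization took both inside 1.5-fold, at 0.54 and 0.51, and loess took Acadl to 0.56. The difference between the sets was not tested, since 1 array per group gives no error for it.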

How the data were processed

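The authors' deposited table holds 1 linear intensity per transcript cluster and array for 41345 clusters on 4 Affymetrix arrays. The sources used here do not give how background, probe summaries and scaling were handled, and no detection calls were used. Per the labels' protocols, RNA was column-purified and 4 ug was labelled with biotin.

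The platform annotation gave 23521 clusters a single gene symbol and 1814 several symbols; 16010 it did not list. Entrez numbers matched 23328 to RefSeq and changed 0 symbols. Intensities were turned into log2(intensity + 3.69), the offset being percentile 25 of all values. No scaling was added, since array medians differed by under 0.1. A gene was its brightest cluster by mean log2 level. Of 22180 genes, 13258 above the median level of all clusters were kept. Differences were counted at 1.5-fold. With 1 array per group no test was made, and array number limits the precision. Genes named were all 27 members, Klf15, a few preset regulators and copies, and listed genes past 1.5-fold in a pairwise comparison. Preset genes without a matched cluster were not analysed here. Members and lists were chosen with earlier results of these data known. Calling was checked on simulated data. The changes planted there were larger than 1.5-fold and the noise was assumed, so the check does not bear on calls near the threshold. Python 3.11.15, pandas 2.3.3 and statsmodels 0.14.6 (loess span 0.4) were used. The 7 alternatives were quantile normalization, loess, an offset of 16 or none, the level filter at percentile 75 or none, and the mean of a gene's clusters.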

Additional observations from a re-analysis of the deposited data

Results flagged for a closer look

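In 3 genes the STZ difference had opposite signs in the genotypes and the difference between them was at least 1.5-fold. With 1 array per group that difference was not tested. Catalase (Cat) stood at 0.35 in WT and -0.29 in KO, a difference of -0.64, which was -0.47 under quantile normalization and -0.52 under loess. Ehhadh stood at 0.35 in WT and -0.23 in KO, a difference of -0.59, from intensities between 14.8 and 23.1. For Ehhadh the difference was past 1.5-fold in 3 of 6 alternatives that kept the gene. Acaa1a stood at -0.0016 in WT, in effect level, and at 0.67 in KO, a difference of 0.67 that rests on the KO STZ array.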

How the results depend on the processing

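No paired analysis was possible because each group has 1 array. A median counts as moved if it changes sign or shifts by over 0.1, a gene value if it shifts by over 0.2. For KO minus WT under vehicle, the median and counts kept to these limits in all 7 alternatives. Under quantile normalization, the members' median moved to 0 for KO minus WT under STZ, to -0.026 for STZ in WT, to 0.046 for STZ in KO and to 0.062 for the difference of STZ effects. Loess moved the latter 2 to 0.0379 and 0.0486, and the level filter at percentile 75 moved the last to 0.018. Members at least 1.5-fold lower in KO under STZ numbered 1 in place of 3 under quantile normalization and loess, and 4 with no offset. For the difference of STZ effects the lower count of 2 became 0 under both, and 1 with an offset of 16 or the filter at percentile 75. With an offset of 16 the higher counts became 0 for KO minus WT under STZ, for STZ in KO and for the difference of STZ effects. The filter at percentile 75 leaves 24 members, and a larger offset shrinks dim genes by construction; otherwise the cause was not tested. Of 1450 values of single genes under alternatives, 11 moved and 0 of the called ones changed sign. The level filters can only drop a gene and the cluster mean changes only genes with several clusters, and these moved 0 values. A value that did not move can still lose its call, as Etfa did under quantile normalization (-0.40 in place of -0.59, KO minus WT under STZ). Signal over background cannot be judged without detection calls.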

Other observations

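Of 9 nuclear receptors and coactivators that act on peroxisomal genes, 0 differed by 1.5-fold between genotypes under either treatment. Of all genes, 0.581% were higher and 0.777% lower in KO under vehicle, and 0.845% and 2.81% under STZ. At these shares nothing is read from 0 of 9. Ppara, the receptor that induces peroxisomal oxidation in rodent liver, was at 34.9 with vehicle and 24.3 with STZ in WT muscle, and at 34.1 and 22.5 in KO muscle. It was lower with STZ in both genotypes, at -0.46 and -0.53. Ppargc1a, a coactivator of mitochondrial genes, read 136.9, 110.7, 187.4 and 114.8 in the same order, and its difference of -0.69 with STZ in KO was past 1.5-fold. Of the 9, 6 were below 0 and 3 above 0 with STZ in WT, the highest being Rxrb, a partner of these receptors, at 0.28. Of all genes kept 48.3% were below 0 there.

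Phyh was read by a second, dimmer cluster at 35.9 (vehicle) and 38.2 (STZ) in WT, and at 33.1 and 27.4 in KO. Its difference of -0.43 between genotypes under STZ was larger than the -0.13 of the brighter cluster.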
